A study of Caenorhabditis elegans with 2 samples.

Results

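The histone genes of Caenorhabditis elegans were examined in peak lists of a chromatin immunoprecipitation and sequencing (ChIP-seq) experiment on LIN-35, the worm relative of the retinoblastoma tumour suppressor. All protein-coding genes whose symbol is his or hil with a number, and htz-1, were taken, which gave 81 of the 19985 annotated protein-coding genes. They comprise 17 genes for H2A, 16 for H2B, 15 for H3, 16 for H4, 9 for linker histone H1 or its relatives, 5 for H3.3 and its relatives, 1 for H2A.Z and 2 that the annotation describes only as histone domain-containing (his-39 and his-73). The 2 samples were biological replicates of a single group, young adults of mixed sex from strain YL468, and their age is not given beyond the stage. In that strain the mex-5 promoter, which is active in germ cells, drives a LIN-35:GFP:FLAG fusion with the 3′UTR of lin-35. The transgene vrIs93 also carries unc-119(+) and stands in the unc-119(ed3) background, so both samples share these alleles and no worms without the fusion were set against them. Whole animals were used, so germ line and soma entered together. Whether a low signal came from few bound cells or from weak binding in each cell cannot be told apart. The labels name the antibody by lin-35 and also describe an eGFP fusion, so the epitope is not settled.

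Histones package DNA into nucleosomes. The core histones H2A, H2B, H3 and H4 are needed in bulk when a cell copies its DNA, and the worm makes them from many small gene copies. Most of these stand as head-to-head pairs, H2A beside H2B and H3 beside H4, with the space between the pair holding both starts. Variants such as H2A.Z and H3.3 can be placed in chromatin outside replication, and linker H1 binds where DNA enters and leaves the nucleosome. LIN-35 does not bind DNA itself. It is brought to promoters by E2F-DP proteins and by its partner LIN-54, a DREAM subunit that reads the CHR element of cell cycle genes. Coordinates are on build ce11 (WBcel235).

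Many of the core gene copies are so alike that a short sequencing read can fit more than one of them. Whether this changed the counts of core genes below was not tested. The 30 bases just upstream of the annotated start of 7 H2A genes are shown, 5′ to 3′ on the gene's strand, because they show how alike some copies are. Capitals mark the bases that differ from his-51.
his-51 (V:8850172-8850201, minus strand): cgtttctacatctaccaaccaatcatcacc
his-53 (V:8853640-8853669, plus strand): cgtttctacatctaccaaccaatcatcacc
his-21 (V:8892267-8892296, minus strand): cgtttctacatctaccaaccaatcatcacc
his-19 (V:8895735-8895764, plus strand): cgtttctacatctaccaaccaatcatcacc
his-7 (V:8533349-8533378, plus strand): TgtttctacatctaccaaccTatcaCcacc
his-3 (V:16040778-16040807, plus strand): cgtttTtacatctaccaaccaatcatcacc
his-61 (IV:7486218-7486247, minus strand): GAttCGtCTTAcGaAcaCcAaCCGCtcaTc

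The first 4 of these runs are one sequence, found at 4 places in the genome. The run of his-3 differs from it at 1 base, that of his-7 at 3 and that of his-61 at 17. To measure this at each gene, every 50-base word of the promoter window, taken as 1000 bp upstream to 300 bp downstream of any transcript start, was looked up in the whole genome on both strands. The share of words that occur once had a median of 53.1% over the 81 histone windows, against 100% over all protein-coding genes. At least 90% of the words were unique in 28 histone windows (34.6%), against 89.3% of all windows. Under 50% were unique in 40 (49.4%), against 2.28% of all windows, and 20 histone windows (24.7%) had no unique word at all, against 0.876%. All 40 of the least unique windows belonged to the core histones. The 9 linker genes, the 5 H3.3 genes and htz-1 all had windows that were at least 90% unique.

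A peak was assigned to a gene when its summit lay in the promoter window. Each gene was then described by its highest peak in the list the authors made from both replicates together, the pooled list. It holds 30000 peaks and includes background, so a peak low in it is weak evidence. The authors' thresholded list is the 550 highest of these, with a lowest signal of 24.8. The signal is the authors' value for each peak, its scale is not given, and it is used only to rank peaks within a list. A thresholded peak was present at 4 histone genes, 4.94% of the 81 (95% exact interval 1.36 to 12.2), against 2.77% of all protein-coding genes. They were htz-1, his-37, his-67 and his-68, and the last 2 share a peak, so 3 sites carried the count. Any pooled peak was present at 31 histone genes (38.3%, 27.7 to 49.7), against 42.9% of all genes. Among the 1000 highest pooled peaks were those of 5 histone genes (6.17%), against 4.51% of all genes, and among the 3000 highest those of 11 (13.6%), against 9.56%. Each of these 4 background shares lies within the exact interval of the histone share, which was 2.03 to 13.8% for the 1000 highest and 6.98 to 23% for the 3000 highest. Intervals here count genes as if they were independent, which members of one pair or cluster are not.

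**Figure D1:**
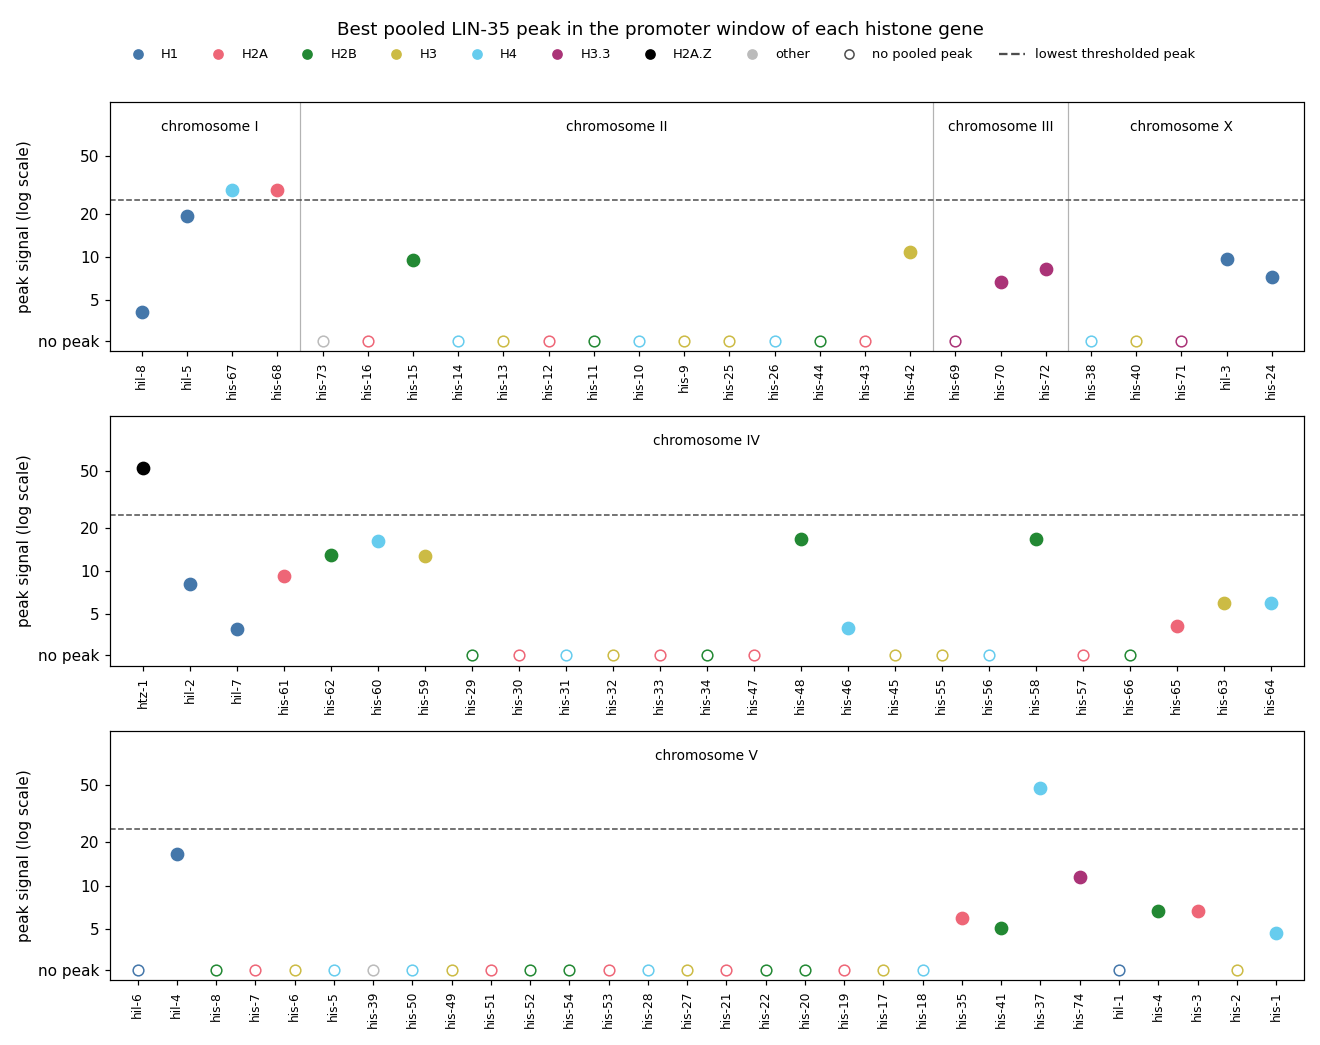
Signal of the highest pooled peak (log scale) in the promoter window of each of the 81 histone genes, placed in order along each chromosome and coloured by class. Filled points are the 31 genes with a peak, open circles are the 50 without one, and the dashed line is the lowest thresholded signal, 24.8; 4 genes lie above it, 2 of them on one shared peak.

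The strongest histone site was at htz-1, the only gene for H2A.Z in the set. The summit of its peak (IV:4445746-4446101) was intergenic, 292 bp upstream of the start. The signal was 52.6 in the pooled list, rank 128 of 30000. It was 35.1 in replicate 1, rank 158, and 19.8 in replicate 2, rank 91, so both replicates placed it among their 550 highest. The summit lay closer to the start of the neighbour wapl-1, 184 bp upstream of it, and wapl-1 codes for the worm relative of the cohesin release factor WAPL. A peak between such a pair cannot be given to either gene.

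The next site was at his-37, an H4 gene on chromosome V. The summit of its peak (V:9546898-9547253) was intergenic, 29 bp upstream of the his-37 start, while the peak itself reached into the gene. The summit lay in the window of no other protein-coding gene. The pooled signal was 47.6, rank 155. It was 28.6 in replicate 1, rank 232, and 19.1 in replicate 2, rank 100. Among the 64 core histone genes, his-37 was therefore the single one with a thresholded peak that both replicates also ranked among their 550 highest.

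All 16 H4 genes encode one and the same protein. The coding sequence of his-37, 309 bases long, differs from those of the other 15 at 30 to 48 bases. It is split over 2 coding exons, where each of the others has 1. All 50-base words of the gene body were unique. Coding bases 37 to 66, 5′ to 3′, are shown because they set his-37 beside copies that share a run, with capitals at bases that differ from his-50.
his-37 (V:9547170-9547199, plus strand): aaGggaggtgcTaaAcgGcatcgTaaAgtT
his-50 (V:8847639-8847668, minus strand): aaaggaggtgccaagcgccatcgcaaggtc
his-28 (V:8889734-8889763, minus strand): aaaggaggtgccaagcgccatcgcaaggtc
his-5 (V:8535250-8535279, plus strand): aaaggaggtgccaagcgccatcgcaaggtc
his-1 (V:16042556-16042585, plus strand): aaaggaggtgccaagcgccatcgAaaggtc
his-60 (IV:7487927-7487956, minus strand): aaaggaggtgccaagcgccatcgTaaggtT

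The his-37 run has 7 such bases, that of his-60 has 2 and that of his-1 has 1. The other 2 H4 genes with a peak among the 3000 highest, his-67 and his-60, had gene bodies that were 96.2% and 94.3% unique. A mostly unique body did not always go with a high peak. His-38 and his-31, with bodies 90.1% and 87.8% unique, had no pooled peak. His-1, with a body 85.2% unique, had its best peak at rank 24404. At the other end, his-14, his-10 and his-26 share one coding sequence with no unique 50-base word in the gene body, and none had a pooled peak. His-46 and his-56 also share one and hold no unique word in the gene body. At these genes a pooled peak was present only for his-46, at rank 29659. The summit of that peak lay 911 bp upstream of his-46 but 20 bp upstream of B0035.21, not a histone gene. The other families hold close copies too: 15 of the 17 H2A genes encode one protein, all 15 H3 genes encode another, and 12 of 17 H2A and 12 of 16 H2B windows were under 50% unique.

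The third site was the pair his-67, an H4 gene, and his-68, an H2A gene, on chromosome I. It is the only head-to-head pair in the set that joins H4 with H2A. The summit of the peak (I:9988812-9989167) lay between the 2 genes, 227 bp upstream of his-67 and 142 bp upstream of his-68, and also fell in the window of alg-5, an Argonaute gene. The pooled signal was 29.2, rank 401. The replicates placed it far apart, at 5.21 and rank 13356 in replicate 1 but at 16.3 and rank 148 in replicate 2.

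Just below the authors' threshold came hil-5 and hil-4, both genes of the linker histone family, and the H2B genes his-48 and his-58. The hil-5 peak (pooled signal 19.2, rank 958) had its summit 176 bp inside the gene. It too ranked high only in replicate 2, at 445, against 17462 in replicate 1. The hil-4 peak (16.7, rank 1299) had its summit 33 bp past the start and ranked 3258 in replicate 1 and 955 in replicate 2. The peaks assigned to his-48 (16.7, rank 1301) and his-58 (16.7, rank 1302) lay 967 and 863 bp upstream of those genes. Both were nearer to the paired H2A gene, 661 bp past the start of his-47 and 557 bp past that of his-57, where the second summit was inside his-57. In replicate 1 the his-48 peak ranked 710. The replicate 2 window of his-48 held no summit, although a peak of signal 2.74 at rank 12004 overlapped the pooled one.

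**Figure D2:**
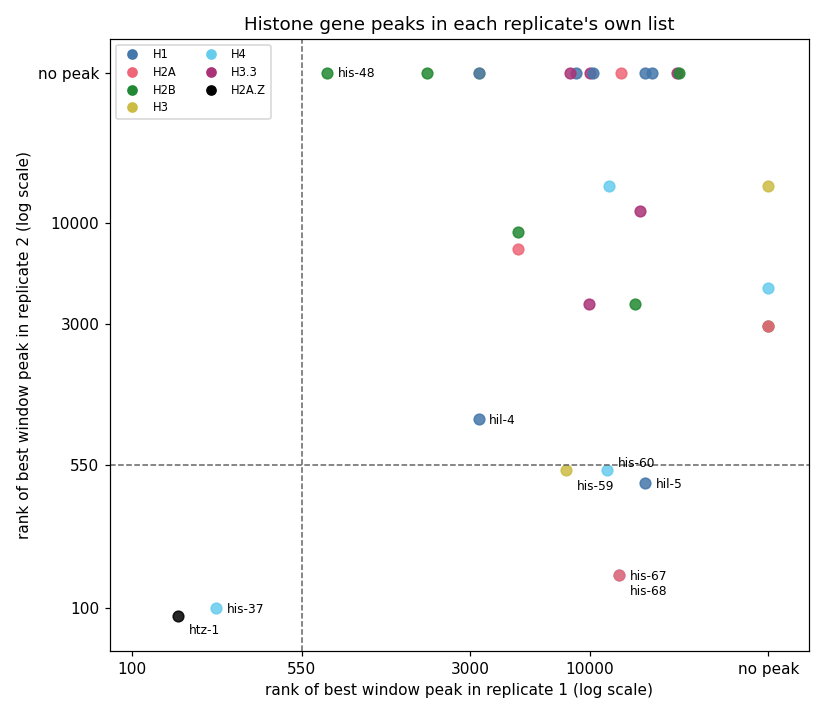
Rank of the highest promoter peak of each histone gene in the list of replicate 1 (horizontal, log scale) and of replicate 2 (vertical, log scale), for the 31 genes with a peak in at least 1 replicate; the strongest peaks are at low ranks. Dashed lines mark rank 550: htz-1 and his-37 are below it on both axes, and his-67, his-68, hil-5, his-60 and his-59 only in replicate 2.

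The replicates differed in how many histone genes they placed high. The 550 highest peaks of replicate 2 marked 7 histone genes (8.64%, 95% exact interval 3.55 to 17), against 2.28% of all genes. Those of replicate 1 marked 2 (2.47%), against 2.71% of all genes. The 7 genes of replicate 2 were htz-1, his-37, his-67, his-68, hil-5, his-60 and his-59, and they came from 5 peaks. The peak behind his-60, an H4 gene, and its H3 partner his-59 was a single one, with signal 10.1 at rank 520 of replicate 2. In replicate 1 the best window peaks of these 2 genes ranked 11824 and 7875. Over whole lists the order was the other way round. A peak of replicate 1 was present at 27 histone genes (33.3%), against 42.1% of all genes, and a peak of replicate 2 at 18 (22.2%), against 29.9%. Replicate 1's list has 30000 peaks and replicate 2's has 18226, and read depth is unknown for both, so their part in these counts was not tested. Both replicates had a window peak at 14 histone genes (17.3%), against 18.6% of all genes. Only replicate 1 had one at 13 (16%), against 23.5% of all genes, and only replicate 2 at 4 (4.94%), against 11.2%. Neither had one at 50 (61.7%), against 46.7% of all genes.

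The 31 genes with a pooled peak were served by 28 separate sites, 3 of which belonged to 2 genes each. Of the 28 pooled peaks, 12 were overlapped by a peak in both replicates, 11 only in replicate 1, 3 only in replicate 2 and 2 in neither. Over all 10248 pooled peaks in promoter windows, 28.3% were overlapped in both. Counting those in both as well, 72.5% were overlapped in replicate 1 and 41.7% in replicate 2. The median rank of the best peak was 5909 over the 31 histone genes (interquartile range 1345 to 16143), against 10362 (3610 to 19084.5) over the 8580 protein-coding genes with one. At 8 of the 28 sites the rank was beyond 15000. Summits lay a median of 365 bp upstream of the histone gene's annotated start, against 261 bp upstream over all genes with a pooled peak. At some core genes, such as his-60 and his-1, the annotated start is the first coding base. Distances there leave out any transcribed stretch ahead of it, and whether this shifted the median was not tested. The gene with the nearest start was the histone gene itself at 15 sites, another histone gene at 10 and a gene of another kind at 3. The summit was intergenic at 16 sites and inside a gene at 12. No share over all pooled promoter peaks was set beside the counts by rank beyond 15000, by nearest start or by place of the summit. These counts therefore only describe the sites.

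Presence of a peak moved with the uniqueness of the window. The windows of the 31 genes with a pooled peak were a median of 95.8% unique, and those of the 50 genes without one 4% unique. Of the 28 histone genes with windows at least 90% unique, 20 had a pooled peak (71.4%, 95% exact interval 51.3 to 86.8), against 45.1% of all genes with such windows. All 4 thresholded genes were among these 28 (14.3%, 4.03 to 32.7), against 2.92% of all genes with such windows. In windows 50 to 90% unique, 6 of 13 histone genes had a pooled peak (46.2%), against 29.8% of all such genes. In windows under 50% unique, 5 of 40 had one (12.5%, 4.19 to 26.8), against 4.61% of all such genes, a share that lies within the interval. These 5, his-15, his-48, his-46, his-58 and his-65, had summits 718 to 967 bp upstream, each nearer to the start of another gene. The peaks themselves were 64.8 to 100% unique, so they lay in more unique sequence than the windows as a whole. None of the 40 histone genes with windows under 50% unique had a thresholded peak, and neither did any of the 456 protein-coding genes with such windows. The exact interval of the histone share reached 8.81%. It treats near-identical copies as independent genes, so it sets no limit on LIN-35 binding there. How the authors treated reads that fit several places is not given in the sources used here. A missing peak at such a copy therefore does not show that LIN-35 was absent. How many peaks were missed for this reason was not tested.

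**Figure D3:**
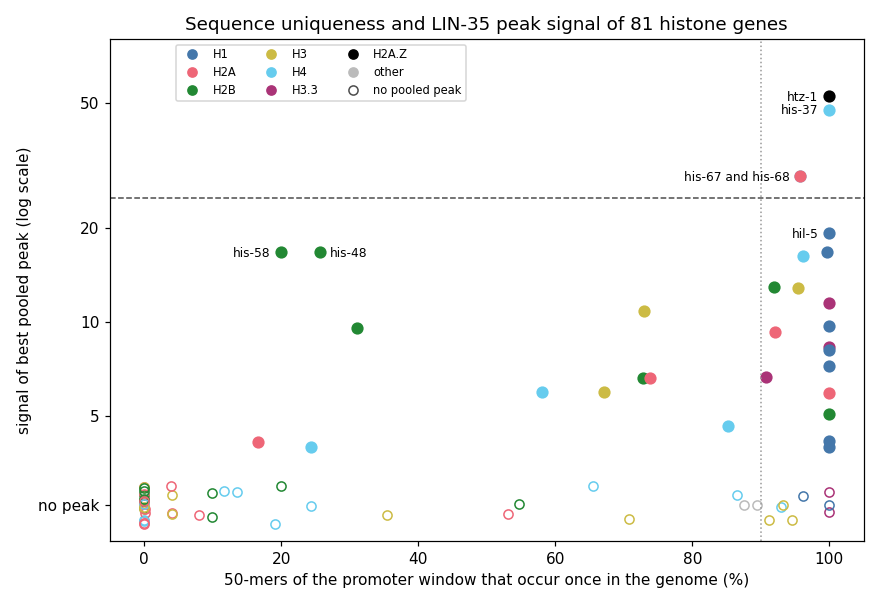
Signal of the highest pooled peak (vertical, log scale) against the share of 50-base words of the promoter window that occur once in the genome (horizontal, %), for all 81 histone genes. Open circles at the bottom are genes without a pooled peak, spread vertically only so that they can be seen; the dotted line marks 90% and the dashed line the lowest thresholded signal of 24.8, and all 4 genes above it lie to the right of 90%.

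By class, a pooled peak was present at 20 of the 64 core genes, against 42.9% of all genes, namely 5 of 17 for H2A, 6 of 16 for H2B, 3 of 15 for H3 and 6 of 16 for H4. It was present at 7 of 9 linker genes, 3 of 5 H3.3 genes and htz-1, and at neither histone domain-containing gene. The windows of the core genes were the less unique ones. Among genes with windows at least 90% unique, a pooled peak was present at 11 of 15 linker and variant genes and at 9 of 13 core genes, against 45.1% of all genes with such windows. For H3 that count was 1 of 4, his-59. Differences between classes were not tested.

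The linker genes covered almost the whole range of ranks. His-24, a linker histone known for a role in germline chromatin, had a peak of signal 7.25 at rank 10793 with its summit 241 bp inside the gene, and replicate 2 had no summit in the window. After hil-5 and hil-4 came hil-3 (9.71, rank 5186), hil-2 (8.11, rank 8294), hil-8 (4.16, rank 28279) and hil-7 (3.99, rank 29800). The last 4 had a window peak in replicate 1 and none in replicate 2. Hil-1 and hil-6 had no window peak in any of the 3 lists, although their windows were 100% and 96.2% unique.

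The H3.3 genes all lay below the threshold. His-74 had the highest peak of them, with pooled signal 11.5 at rank 3265, 172 bp upstream of its start and shared with ccch-3. It ranked 16603 in replicate 1 and 11571 in replicate 2. His-72 had a signal of 8.29 at rank 7865, with the summit 373 bp inside the gene, upstream of the start of a shorter transcript. His-70 had 6.67 at rank 12896, 566 bp upstream. His-71 and his-69 had a window peak only in replicate 1, of signal 6.54 at rank 8172 and of 3.59 at rank 23968. All 5 genes had a window peak in replicate 1, at ranks 8172 to 23968, against 42.1% of all genes with one. The list of replicate 1 holds 30000 peaks, and a peak low in it is weak evidence. His-72 and his-74 had a window peak in replicate 2, against 29.9% of all genes. With 5 genes, these differences were not tested. The H2A gene his-35 had a pooled peak of 5.94 at rank 16334, with the summit inside the neighbouring his-41. The nearest start was that of C50F4.6, not a histone gene, 191 bp from the summit, against 613 bp for his-35.

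The core genes were next read as head-to-head pairs, 31 in all: 16 of H2A with H2B, 14 of H3 with H4 and his-67 with his-68. The space between the annotated starts ran from 227 to 368 bp, with a median of 258 bp. A pooled summit lay in that space in 2 pairs, his-67 with his-68 and his-61 with his-62, whose peak had signal 9.26 at rank 5909. It lay there in none of the 14 H3 and H4 pairs. A summit of replicate 1 was present in 3 of the 31 spaces and one of replicate 2 in 1, with no share over other head-to-head pairs to set beside these. Of the 31 spaces, 17 held no unique 50-base word. Among the 10 that were at least 90% unique the count was 2 (20%), against 41.8% of the 294 head-to-head pairs of protein-coding genes with spaces of the same lengths and the same uniqueness. No interval was computed for these 10 spaces, which are few, and the difference was not tested. Peaks assigned to paired genes mostly lay elsewhere. His-60 (16.2, rank 1388) had the summit of its best peak 688 bp upstream, beyond the far end of his-59, and his-59 (12.8, rank 2462) had its summit 535 bp upstream, inside his-60.

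Seen as clusters, with members less than 20000 bp apart joined, 58 of the 81 genes stood in 9 clusters of 4 or more, and 15 of these 58 had a pooled peak. Of the 23 genes outside such clusters, 16 had one. The share over all protein-coding genes was 42.9%. The largest, with 13 genes from his-16 to his-42 (II:13817760-13828697), was 7.58% unique and held 1 pooled summit, of signal 6.8. Higher peaks lay in the windows of 2 of its genes but had summits just outside that span. They were those of his-42 (10.8, rank 3843) and his-15 (9.53, rank 5430). The 8 genes from his-28 to his-18 (V:8889488-8898539) were 1.62% unique and held no summit in any list. The span of the 8 genes from his-47 to his-57 (IV:11324056-11341703) is 17648 bp long and also holds the start of B0035.21, not a histone gene. It was 67.3% unique and held 8 pooled summits, 5 of replicate 1 and 11 of replicate 2, the highest of them at a pooled signal of 16.7. A pooled peak was present in the promoter windows of only 3 of these 8 genes. In the 6 genes from his-50 to his-53 (V:8847393-8854053) no word was unique and no list had a summit. The 6 genes from his-29 to his-34 (IV:8331044-8336340) also held no summit in any list, and 52.7% of their words were unique. The last 2 clusters, and the groups of genes drawn in the map of summits, were picked after their values were seen.

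**Figure D4:**
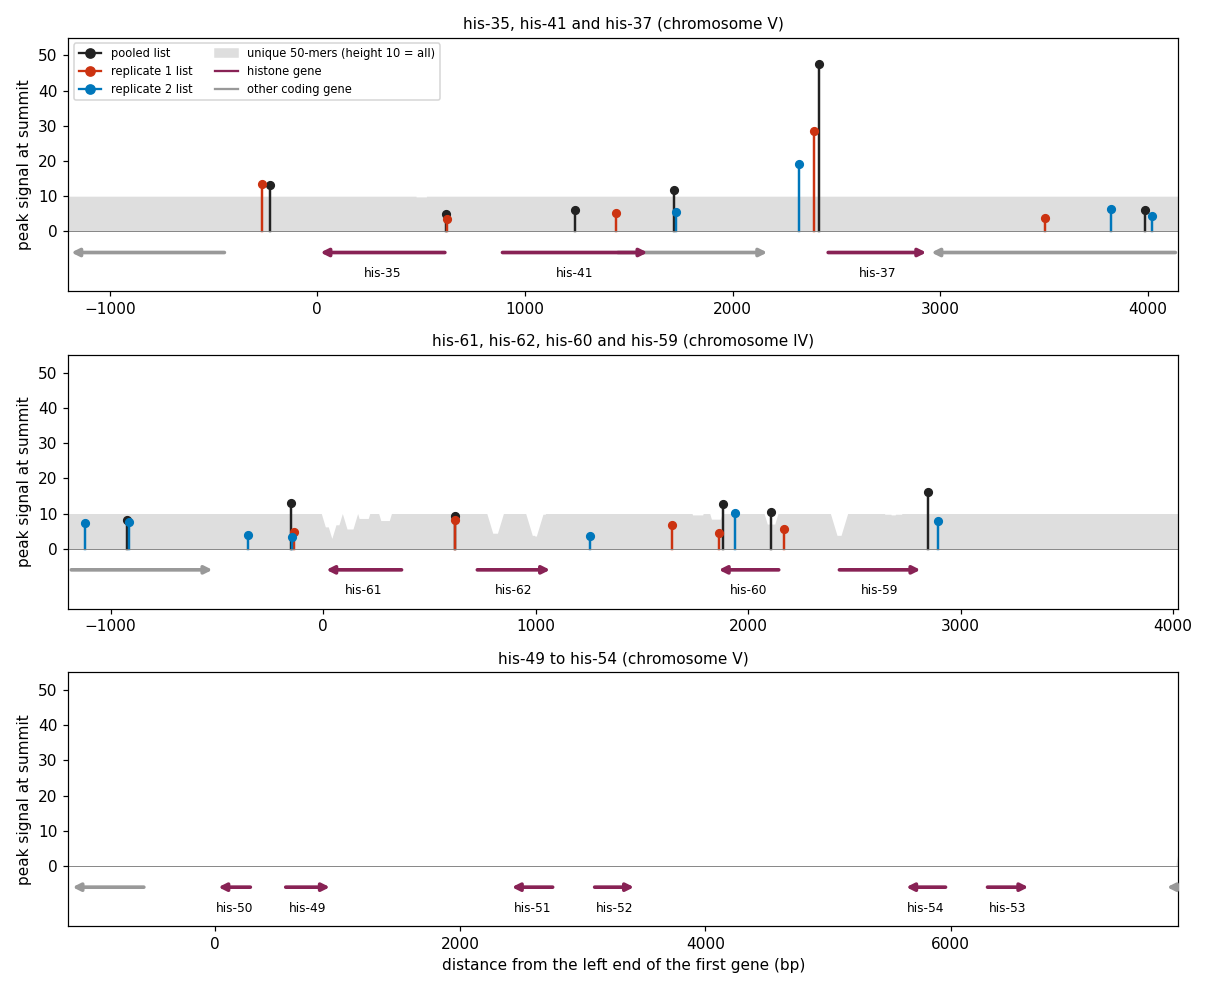
Peak summits of the pooled list and of each replicate at 3 groups of histone genes, by distance in bp from the left end of the first gene (horizontal) and peak signal (vertical; each list has its own scale). Grey shading is the share of unique 50-base words, drawn so that a height of 10 means all; arrows are genes. The his-37 peak reaches 47.6 in the pooled list, the peaks around his-61 to his-59 reach at most 16.2, and at his-50 to his-53 there is neither unique sequence nor a summit.

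Sequence strings of the factors that LIN-35 works with were counted within 100 bp of the 28 summits, on both strands. The E2F strings TTTCCCGC, TTTCGCGC, TTTGCCGC and TTTGGCGC were present at 1 site (3.57%), that of hil-8, against 4.97% of all pooled promoter peaks and 16.4% of the thresholded ones. A CHR-like string, TTCGAA or TTTGAA, was present at 15 sites (53.6%), against 56.2% of pooled and 65% of thresholded promoter peaks. TTCGAA, which reads the same on both strands, was present at 7 sites (25%), against 14% of pooled and 17.6% of thresholded promoter peaks. That gap was not present in the other windows tried: within 50 bp TTCGAA was at 7.14% of the histone sites, against 6.85% of pooled promoter peaks, and within 200 bp at 25%, against 25.3%. TTTGAA was present at 11 sites (39.3%), against 49.4% and 57.6%. Of the 3 thresholded histone sites, those of htz-1 and his-67 with his-68 held a CHR-like string and that of his-37 held none. These matches describe letters in a window of genome sequence and are not binding sites. The stretches around the string at htz-1, hil-4 and his-74, and the stretch centred on the his-37 summit, are shown on the plus strand because they let these sites be compared. Capitals mark the string, which at hil-4 is TTTGAA read on the minus strand.
htz-1 (IV:4445967-4445996): ttgatttcttcgTTCGAAtgttttcctgtt
hil-4 (V:4754400-4754429): cccaacgaaagcTTCAAAagctacgaaggc
his-74 (V:12660482-12660511): aaataaaattaaTTTGAAaaaaactttaaa
his-37 (V:9547061-9547090): agaacgacgacgagtgacgttcaattctgt

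The nearest base of the string lay 55 bp from the summit at htz-1 and 66 bp from it at hil-4, and at his-74 the distance was -3 bp, counted along the plus strand from the summit.

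The genes that handle histones were set beside the histone genes themselves. The list held 29 genes for histone chaperones, histone acetylation, exchange and remodelling complexes, centromeric H3 and histone mRNA processing, all matched in the annotation, and 26 had windows at least 90% unique. A thresholded peak was present at 7 (24.1%, 95% exact interval 10.3 to 43.5), against the 2.77% of all genes given above. A pooled peak was present at 27, against 42.9% of all genes, and at 16 it was among the 3000 highest, against 9.56% of all genes. The list was drawn up knowing that hcp-3 and lin-53 had strong peaks, so its share is not independent evidence. The highest was hcp-3, the centromeric H3 variant, which does not carry a his symbol (pooled signal 101, rank 43; replicate 1 62.9, replicate 2 33.9). Second was lin-53, a histone-binding protein that is also part of DREAM (70.2, rank 83, shared with nra-2).

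The other 5 were ekl-4, related to a subunit of the TIP60 and SWR1 complexes (44.2, rank 175, shared with the ribosomal protein gene rps-20), zhit-1 (38.8, rank 218), unc-85, an ASF1 chaperone of H3 and H4 (38.5, rank 222), hat-1, a histone acetyltransferase (34.9, rank 276, shared with M03C11.3), and nasp-2, a relative of the H3-H4 chaperone NASP (28.9, rank 407). Of these 7 genes, hcp-3 (ranks 61 and 28) and lin-53 (68 and 410) were among the 550 highest peaks of both replicates. In replicate 1 ekl-4 ranked 172, zhit-1 160 and hat-1 196, and in replicate 2 they ranked 891, 3251 and 1075. For unc-85 the rank was 735 in replicate 1 and 251 in replicate 2, and for nasp-2 it was 817 and 114. Next below the threshold were ruvb-2, an AAA ATPase of remodelling complexes (24.1, rank 596), isw-1, the worm ISWI (22.4, rank 693), and mys-1, the worm TIP60 acetyltransferase (22.1, rank 713). In replicate 1 ruvb-2 ranked 339, isw-1 1658 and mys-1 445; in replicate 2 isw-1 ranked 582 and mys-1 1163, and ruvb-2 had no window peak. The stem-loop binding protein gene cdl-1, which acts on the mRNA of core histones, had a peak of 18.2 at rank 1085, with rank 912 in replicate 1 and 3531 in replicate 2. The second centromeric H3 gene, cpar-1, had one of 16.1 at rank 1410, with rank 2470 in replicate 1 and no window peak in replicate 2. These last 2 were named after their values were seen.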

How the data were processed

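LIN-35 was mapped by ChIP-seq in whole young adults, as 2 biological replicates per the labels. The deposited files used are the ce11 peak lists of each replicate, of the pooled replicates and of the thresholded set. Peak signal is the authors' own value in those deposited lists, with no scaling stated. No control library was analysed here. Aligner, peak caller, read length and the handling of reads that fit several places were not given in the sources used here. Files give no read counts, so depth is unknown, and exact (Clopper-Pearson) 95% intervals cover counting of genes only.

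Peaks were set on the WBcel235 genome and annotation of Ensembl release 115, after checking that peak ends lay within the chromosomes. Identical histone copies share a symbol there, so the 81 genes were keyed by gene ID and named by RefSeq symbol, which all 81 had, and classed by RefSeq product. Sequences are of the same genome. Uniqueness counted 50-base words, or 36-base words as an alternative. Head-to-head pairs were neighbouring histone genes on opposite strands with starts facing. Named genes were those with a thresholded peak, those among the 1000 highest pooled or 550 highest peaks of a replicate, the 4 next below the threshold, the linker and variant genes and his-35, 1 cluster on each chromosome with 4 or more members together, and the thresholded and next 3 genes of the chaperone list. Members, lists and rules were chosen with earlier results of these data known, and no test was made on them. Alternatives were other promoter windows, the nearest start, any overlap, other numbers of peaks, each replicate alone and other motif windows, and, added after seeing the data, unique windows only. The code for assignment and uniqueness was tested on simulated data. Python 3.11.15, numpy 2.4.6, scipy 1.17.1, matplotlib 3.10.9 and Biopython 1.88 were used.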

Additional observations from a re-analysis of the deposited data

How the results depend on the processing

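The 4 histone genes with a thresholded peak became 2 by nearest start (his-68 and his-37, against 1.92% of all genes) and 2 with the strictest number of peaks tried (htz-1 and his-37, against 1.5% of all genes). With the 3000 highest they became 11, and sites 10 in place of 3. Each replicate alone gave 2 to 7 genes and 2 to 5 sites: htz-1 and his-37 without replicate 2, and these with his-67, his-68, hil-5, his-60 and his-59 without replicate 1. A window of 500 to 100 bp gave 4 genes (2.27% of all genes), and a window of 2000 to 500 bp gave 5, adding his-35 (3.44%). Any overlap gave 4 (2.94%), and the 1000 highest peaks gave 5, adding hil-5 (4.51%). Among windows at least 90% unique the count was 4 of 28, against 2.92% of all genes with such windows. The 31 genes with any pooled peak became 18 with a window of 500 to 100 bp (28.7% of all genes). They became 18 without replicate 1 (29.9% of all genes) and 27 without replicate 2 (42.1%). In windows at least 90% unique they were 20 of 28, against 45.1% of all genes with such windows. Counted on 36-base words, 18 windows in place of 28 were at least 90% unique, and 15 of these 18 genes had a pooled peak. No share over all genes was computed for that last count, so it has no background to be read against. The median rank was 2895 to 9988 with each replicate alone, in lists of unequal length. E2F strings were at 0 sites within 50 bp and 3 within 200 bp, and CHR-like strings at 7 within 50 bp. Among the 3000 highest peaks the median summit lay at -292 bp from the start. The 7 genes of the chaperone list with a thresholded peak became 6 with a window of 500 to 100 bp, against 2.27% of all genes. The summit at hcp-3, the highest of the list, lay at -653 bp from the start, outside that window. The list had 11 genes with the 1000 highest peaks, against 4.51% of all genes, and 16 with the 3000 highest, against 9.56%. The cause of these shifts was not tested, beyond what fewer peaks or narrower windows give by construction.

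No paired analysis was possible because the data hold a single group. With 2 replicates, no reads, no depth and no worms without the fusion, a share of genes carries no error between conditions, and near-identical copies cannot be told apart.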

Other observations

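Some peaks inside histone clusters fell in no histone promoter window. The highest pooled peak within the 4 genes from his-66 to his-64 (IV:11400415-11407427) had a signal of 17.6, above the 5.97 of the best window peak there, at his-63 and his-64. Within hil-1 lay 1 pooled summit of signal 5.48, although its window had none. The linker gene hil-7 had a summit of 6.82 within the gene, against 3.99 for its window peak. These genes and regions were picked after their values were seen, and no test was made.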
